A study of Petunia x hybrida with 6 samples.

Results

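A set of 102 Trinity components was abundant in the corolla of *Petunia hybrida* buds and fell, but was not lost, once the flower had opened. A component is a group of assembled contigs that share sequence, and it may stand for a gene or for several related genes or isoforms. Which of these holds was not checked for any member. The study itself took each contig as a putative gene. The members were chosen by measured values. Counts were summed over the contigs of a component and scaled to CPM, the number of counts per 1000000 with median-of-ratios size factors, and a component entered when its bud mean was 300 CPM or more and was 2 to under 16 times its day 2 mean. Of the 80785 components in the deposited table, 551 reached 300 CPM in buds and 102 of these met the limits of the fall. Level and size of the fall are therefore given as descriptions, with no test.

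RNA came from corollas, the petals of the flower, of wild-type plants of the cultivar Mitchell diploid. Buds were taken the day before opening and open flowers on day 2 postanthesis, in 3 biological replicates each, and every replicate pooled at least 8 flowers. No treatment or transgene separated the stages. Total counts were 87419488 to 106341976 in the bud libraries and 96184358 to 111398763 in the day 2 libraries, and no library was left out. Added up over all libraries, these totals exceed the number of unambiguously mapped reads that the study states for all samples. A read may therefore have been counted more than once, and totals, shares and counting errors are those of counts and not of reads. The study used the libraries to search for candidate phenylalanine transporters, with stages chosen for their low and high phenylalanine levels.

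In a petal, growth is largely completed before and during opening, by the expansion of cells laid down in the bud. The open Mitchell flower then turns phenylalanine into volatile benzenoids and phenylpropanoids, which it emits at night. The deposited counts do not pair components with gene names, so the members are given by their component number, with no role assigned, and no sequence is shown. None of the 3 components that carry the numbers of the *pheP* homologues (comp21511, comp18042 and comp19221, matched by number alone) was a member. In whole corollas, fewer cells of a type and less RNA per cell cannot be told apart.

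In buds, 9.08% ± 0.107 (SD, n = 3) of all counts fell on the 102 members, and the share on day 2 was 2.02% ± 0.0837 (SD, n = 3). By library, they held 9.07%, 9.19% and 8.97% of the counts in bud replicates 1, 2 and 3. On day 2 they held 1.96%, 2.11% and 1.97%. The libraries of a stage thus lay close together, although single members differed more, as described below. After scaling, the bud libraries summed to 76328 ± 1933 CPM over the members (SD, n = 3) and the day 2 libraries to 23131 ± 519 CPM (SD, n = 3), a 3.30-fold decrease. This is smaller than the drop in the share of counts, which also depends on the rest of each library. The 240 components that reached 300 CPM on day 2 and rose at least 2-fold made up 34.1% ± 0.702 (SD, n = 3) of the day 2 counts. The 361 components of 300 CPM or more in buds that stayed within 2-fold took 30.3% ± 0.207 of the bud counts and 24.9% ± 0.224 of those of day 2 (SD, n = 3 each).

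**Figure D1:**
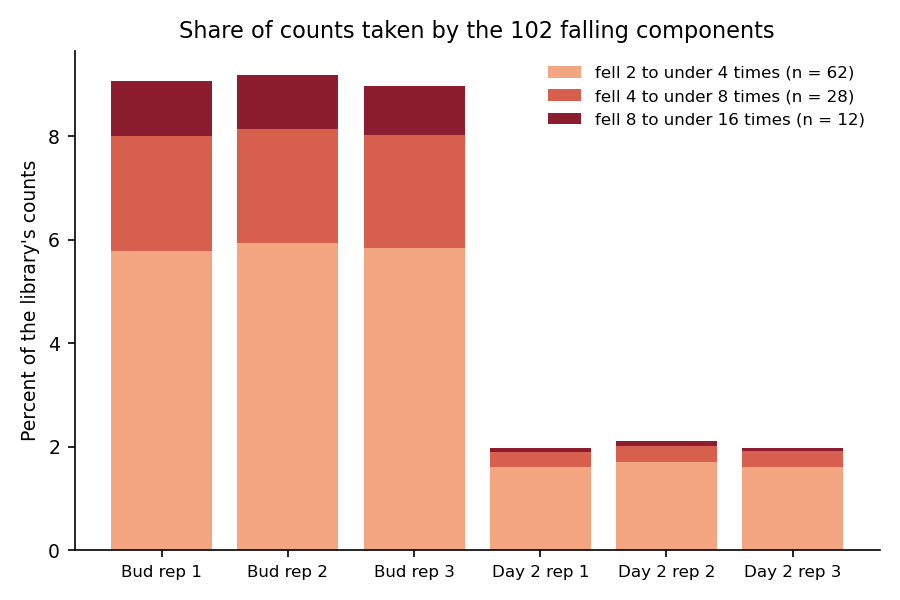
Percent of each library's counts (y axis) taken by the 102 members in the 3 bud and 3 day 2 libraries (x axis), with the bars split by the size of the fall. The bars reach 8.97% to 9.19% in buds and 1.96% to 2.11% on day 2.

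Within the set, abundance was spread unevenly. The bud means ran from 304 to 4744 CPM with a median of 495 CPM, and 38 members lay below 400 CPM. The 19 highest members supplied 45.3% of the summed bud level. On day 2 the means ran from 29.8 to 1466 CPM with a median of 153 CPM. Of the 102 members, 18 were still at 300 CPM or more on day 2 and 27 were below 100 CPM. Bud level and size of the fall were not ordered alike across the members (Spearman's rho −0.01 over 102 components, which share the same libraries and are not replicates). The rule limited both quantities, so this describes the set only.

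**Figure D2:**
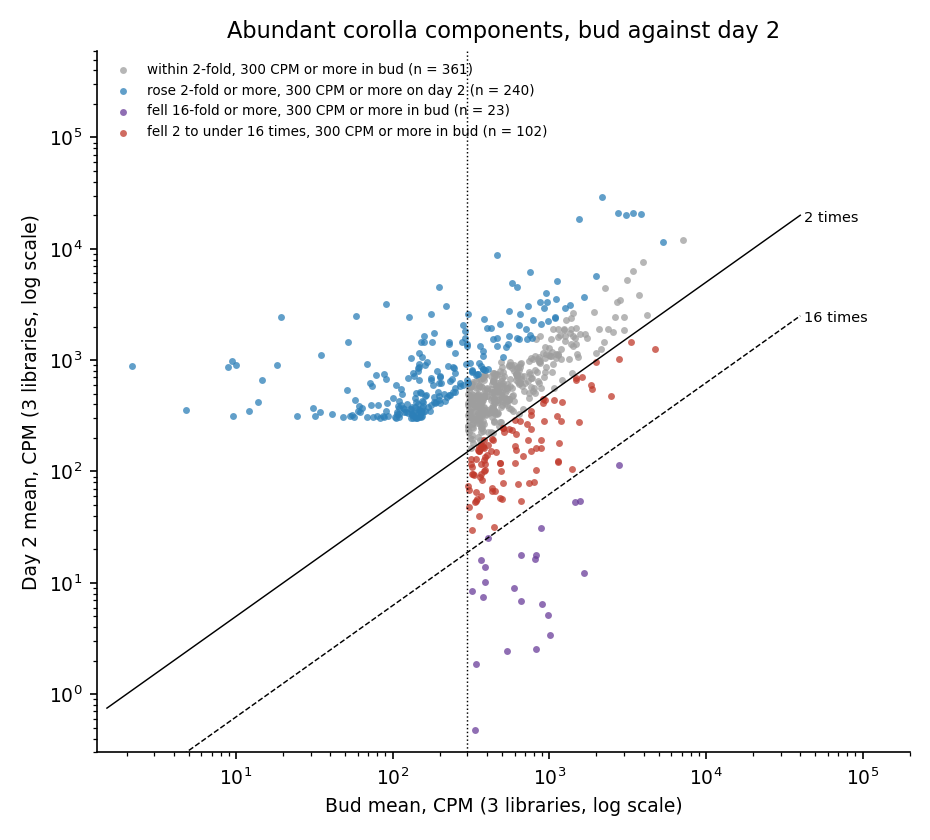
Mean CPM on day 2 (y axis, log scale) against mean CPM in buds (x axis, log scale) for the abundant components, each point a component. The solid and dashed lines mark a bud mean of 2 and 16 times the day 2 mean and the dotted line marks 300 CPM in buds; the 102 members, in red, fill the band between the lines, with 361 steady components above it and 23 components that fell further below it.

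The most abundant member was comp18327. Its bud libraries held 4066, 5101 and 5065 CPM and its day 2 libraries 1239, 1225 and 1336 CPM. Bud replicate 1 was the lowest of its stage, yet it lay well above every day 2 library. The means were 4744 ± 588 and 1267 ± 60.5 CPM (SD, n = 3 each), a 3.74-fold decrease, or −1.92 on the log2 scale with a standard error of 0.11 in edgeR's quasi-likelihood fit. This component alone made up 6.54% of the summed loss of the set.

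The next in abundance, comp19426, held 3336, 3193 and 3389.6 CPM in buds and 1315, 1572 and 1512 CPM on day 2. Its 2.25-fold decrease left it the highest member on day 2, at 1466 ± 134 CPM (SD, n = 3). For comp19915 the values were 2637, 2756 and 3022 CPM in buds and 894, 994 and 1154 CPM on day 2, a 2.77-fold decrease. In both components the stages stood apart in every library and replicate 1 was the lowest on day 2.

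A larger fall was seen for comp15286, from 2525, 2359.6 and 2565 CPM in buds to 423, 438 and 566 CPM on day 2. It decreased 5.22-fold (log2 fold change −2.40, standard error 0.12). The fifth in abundance, comp19680, held 1854, 2399 and 1728 CPM in buds and 996, 1004 and 871 CPM on day 2, a 2.08-fold decrease. Its bud replicate 2 stood above the other two, which gave it a coefficient of variation (SD over mean) of 17.9% in buds against 7.81% on day 2. The 5 components with the largest losses in CPM accounted for 19.6% of the summed loss, and the 10 largest for 30.7%.

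The fall was modest in most members. It lay between 2 and 4 times in 62 members, between 4 and 8 times in 28, and between 8 and 16 times in 12. The median was 3.40-fold and the quartiles were 2.33- and 5.22-fold. Members that fell less than 4 times still carried 57.3% of the summed loss, while those that fell 8 times or more carried 14.6%. In buds, the 12 steepest members took 1.07%, 1.05% and 0.953% of the counts of replicates 1, 2 and 3, and on day 2 they took 0.0701%, 0.0909% and 0.0631%.

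The steepest fall was that of comp12908. Its bud libraries held 470.5, 450.1 and 416 CPM and its day 2 libraries 31.9, 29.9 and 32.6 CPM, so that both stages were tight. The decrease was 14.2-fold (log2 fold change −3.84, standard error 0.09), and the lowest bud library was 12.8 times the highest day 2 library. For comp18926, buds held 1412, 1446 and 1359 CPM and day 2 flowers 85.5, 147 and 81.2 CPM. The 13.4-fold decrease of this component was thus less evenly measured, since day 2 replicate 2 lay above the other replicates (standard error 0.23 on the log2 scale). It also rested on how contigs were combined, since the log2 fold change was −2.58 with the most counted contig of each subcomponent in place of the sum, against −3.76. In comp16856, 590.1, 754 and 628 CPM in buds were followed by 48.9, 57.1 and 57.6 CPM on day 2, a 12.1-fold decrease.

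At the other end, comp14904 was just inside the limit of 2 times. It held 364, 382 and 402 CPM in buds and 179, 221 and 175 CPM on day 2. Component comp18607 fell 2.03-fold, from 504 ± 48.7 to 248 ± 16.6 CPM (SD, n = 3 each), and comp17508 fell 2.06-fold, from 599.8 ± 12.2 to 292 ± 24.7 CPM (SD, n = 3 each). Just outside the same limit, comp17152 went from 437 ± 17.1 to 220.0 ± 2.81 CPM (SD, n = 3 each), a 1.99-fold decrease. The upper limit divided comp12908 from comp13193 just above it, which fell from 405 ± 58.3 to 25.2 ± 4.22 CPM (SD, n = 3 each). At the limit of abundance, comp19839 (304 ± 22.3 CPM in buds, SD, n = 3) and comp15532 (306 ± 25.9 CPM) were inside and comp17110 (298 ± 13.8 CPM) was outside. The contigs of comp15532 held 23.2 to 28.3 CPM each in buds, so this component met the limit only through summing. The bud means at the limit of abundance differ by less than their spread between libraries, so that edge follows from the limit and from no gap. At the lower fold limit only the folds were close, since bud means were 383 ± 19.2 CPM for comp14904 and 437 ± 17.1 CPM for comp17152. At the upper limit, day 2 means were 31.5 ± 1.40 CPM for comp12908 and 25.2 ± 4.22 CPM for comp13193, further apart than either SD. Whether a gap lies at either fold limit was not tested. The size of the set depended on the scaling too: with the total count alone in place of size factors, 178 components met the same limits, of which 99 were members.

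**Figure D3:**
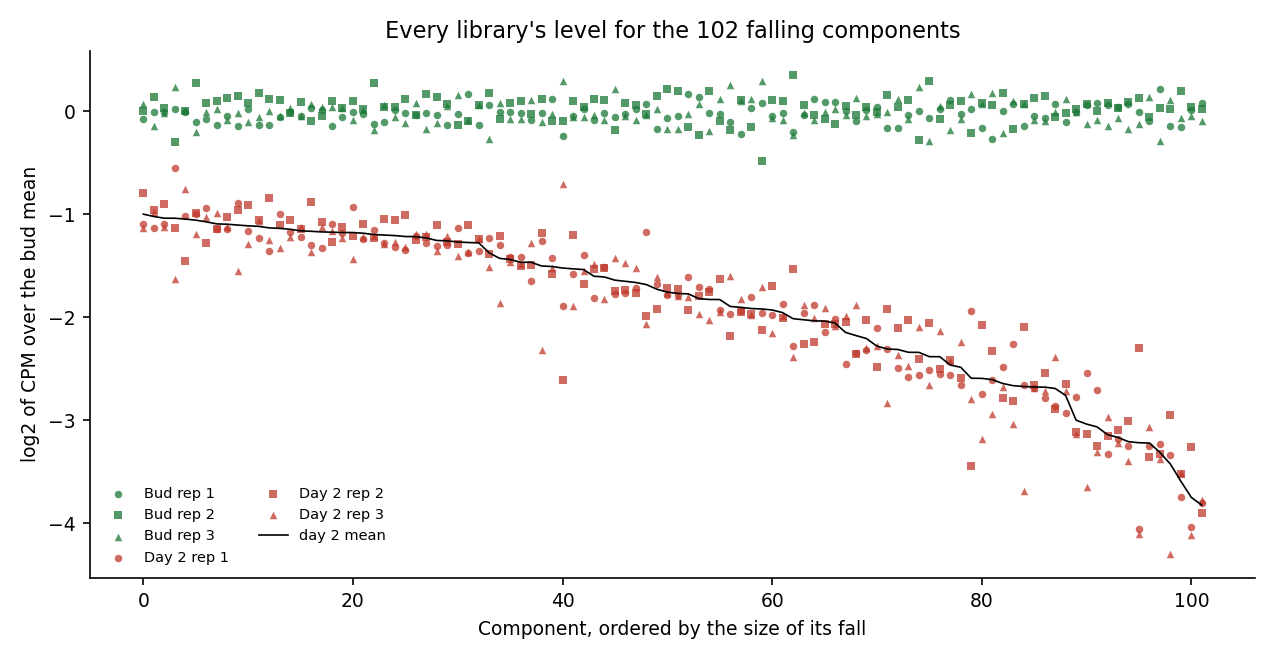
The log2 ratio of each library's CPM to the bud mean (y axis) for the 102 members ordered by the size of their fall (x axis), with bud libraries in green, day 2 libraries in red and the day 2 mean as a line. Bud and day 2 points are separate for every member, and the line ends at −3.82 for comp12908.

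For all 102 members, the lowest bud library was above the highest day 2 library; this was so for 34.6% of the 24677 components that passed edgeR's filter on low counts. All 102 passed the filter and were called lower at an adjusted p below 0.05, against 30.2% of the components tested and 39.9% of those of 300 CPM or more in buds. Since the rule used this contrast, nothing is read from these counts. The gap between the stages ranged widely. Within the fold limits of the rule, which largely set this gap, the lowest bud library was at least 2 times the highest day 2 library in 77 members. It was at least 4 times as high in 24. Shares over all components are not given for these limits, and nothing is read from these counts either. It came closest in comp14492, named after its values were seen, where 926, 746 and 1078 CPM in buds were followed by 623, 418 and 296 CPM on day 2. Here bud replicate 2 lay just above day 2 replicate 1. When the set was chosen again without the bud and day 2 libraries of one replicate number, 97 to 108 components were chosen, and 94 to 99 of them were members. In the libraries left out, the median log2 change of the chosen components was −1.74, −1.81 and −1.84 for replicates 1, 2 and 3. Of the chosen components, 91.3%, 92.8% and 90.7% were at least 2-fold lower there. These values used size factors from all libraries and were not tested. Over all components tested, edgeR's log2 fold change had a median of −0.05 and a lower quartile of −0.91. The exception in direction among the chosen components was comp17413, which is no member. It was chosen without replicate 2 and without replicate 3 and was higher on day 2 in the libraries left out.

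Bud replicates differed little in most members. The coefficient of variation over the 3 bud libraries had a median of 7.84% and ran from 0.851% to 26.0%. It was under 5% in 19 members, over 10% in 30 and over 20% in 3. The highest bud library was over 1.2 times the lowest in 33 members and over 1.5 times in 1. Counting error would be much smaller than this if counts were independent. The least counted bud value of any member was 29972 counts, with an error of 0.578% on that basis. Reads counted on several contigs would make the error larger. The median coefficient of variation was 4.96% in the 361 steady components, 7.52% in the 65 components that rose at least 2-fold from 300 CPM or more in buds, and 11.9% in the 23 that fell 16-fold or more. These medians describe components of the same libraries and were not tested against each other.

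The 3 members that varied most between buds did so in different ways. In comp19411, bud replicates 1, 2 and 3 held 772, 522 and 895 CPM, so that replicate 2 was the lowest and replicate 3 was 1.71 times as high. Its day 2 libraries held 187, 167 and 224 CPM, with replicate 3 again the highest. In comp20017 the order was the reverse, with 422, 619 and 413 CPM in buds. On day 2 this component held 100.1, 167 and 92.4 CPM, so that replicate 2 was the highest in both stages. Component comp18029 resembled it, with 323, 415 and 277 CPM in buds and 59.4, 81.5 and 53.8 CPM on day 2. The labels give only the replicate numbers and do not say that samples of equal number were grown or collected together. The steadiest members, named after their values were seen, were comp20077, with 499, 503 and 508 CPM in buds, and comp18898, with 822, 835 and 822 CPM.

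Bud replicate 2 was the highest bud library in 59 of the 102 members, replicate 3 in 28 and replicate 1 in 15. Replicate 3 was the lowest in 48, replicate 1 in 31 and replicate 2 in 23. The most frequent order, in 40 members, was replicate 2 above replicate 1 above replicate 3. The shifts were small. On the log2 scale the median difference from the bud mean was −0.02 in replicate 1, 0.06 in replicate 2 and −0.04 in replicate 3, and the number of members more than 0.2 above the bud mean was 1, 5 and 6. The count for replicate 2 rested in part on the scaling, since it was the highest in 57 members with TMM factors and in 45 with the total count alone. With the total count alone, replicate 1 was the highest in 32 members and replicate 3 in 25, and the median of replicate 1 turned to 0.01. With median-of-ratios size factors, replicate 2 was also the highest in 166 of the 361 steady components, and with the total count alone in 141. The difference of replicate 3 from the bud mean did not follow the size of the fall within the set (Spearman's rho 0.05 over 102 components), and its median was −0.03, −0.01 and −0.09 in the members that fell 2 to 4, 4 to 8 and 8 to 16 times. The 23 components that fell 16-fold or more had a median of −0.13 in replicate 3 and 0.16 in replicate 2. In the 240 rising components, replicate 3 was instead the highest bud library in 146, with a median of 0.09.

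**Figure D4:**
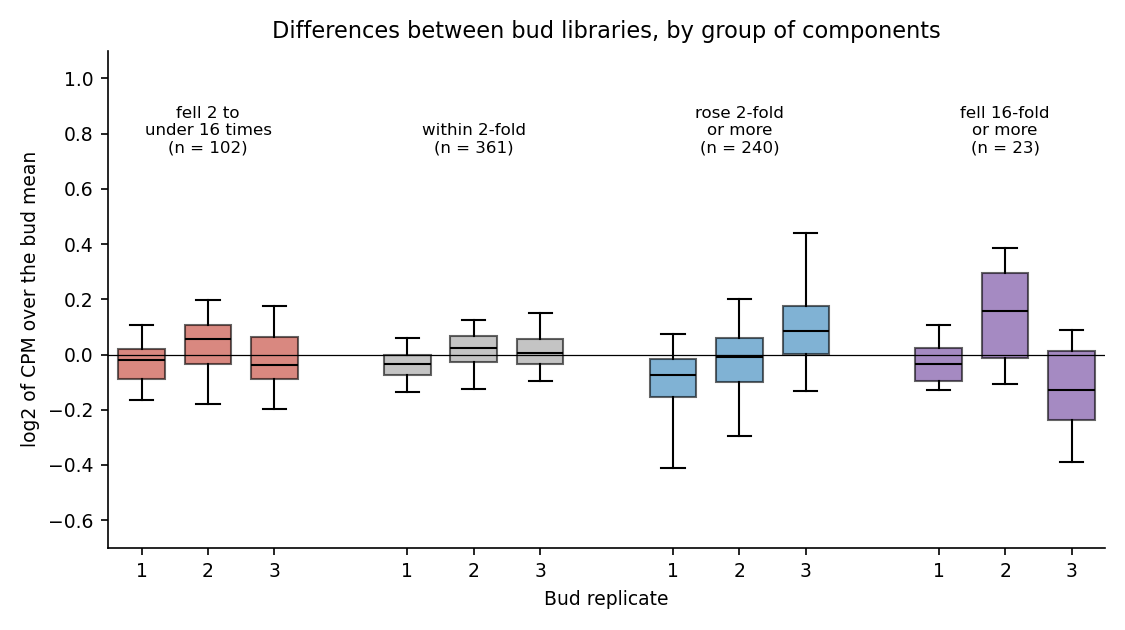
The log2 ratio of CPM in each bud library to the bud mean (y axis) for bud replicates 1, 2 and 3 (x axis) in 4 groups of abundant components; boxes give the median and quartiles over components and whiskers the 5th to 95th percentile. In the 102 members the medians were −0.02, 0.06 and −0.04, and in the 23 components that fell 16-fold or more they were −0.03, 0.16 and −0.13.

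Day 2 libraries were less alike than bud libraries for most members. The coefficient of variation on day 2 had a median of 11.4% and was larger than that in buds in 65 of the 102 members. The medians were higher on day 2 in other components too, at 17.9% against 14.2% in buds over all components tested and 5.84% against 4.96% in the steady ones. It was over 20% in 24 members and over 30% in 13. The highest day 2 library was over 2 times the lowest in 9. The least counted day 2 value of a member was 1357 counts, for which independent counts would give an error of 2.71%. Among the most uneven were comp25435 and comp14472, named after their values were seen, and comp15532, and they did not point to the same library. In comp25435, 1131, 1247 and 1043 CPM in buds were followed by 68.7, 232 and 66.4 CPM on day 2, so that replicate 2 was high. The standard error of its log2 fold change, 0.48, was the largest of the set. In comp14472, 325, 361 and 472 CPM in buds were followed by 104, 63.4 and 236 CPM, so that replicate 3 was high. In comp15532, the day 2 libraries held 48.5, 71.4 and 23.8 CPM, so that replicate 3 was low. Over the set, replicate 2 was the highest day 2 library in 44 members, replicate 1 in 30 and replicate 3 in 28.

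The members were built from 1886 contigs, with a median of 10.5 contigs per member and up to 125. Only comp25435 and comp14478 consisted of 1 contig, 51 members had up to 10, and 25 had more than 20. The median was 29 contigs in the steady components and 8 in the 240 rising ones, which were chosen by their day 2 level. It was 18 in the 65 components that rose at least 2-fold from 300 CPM or more in buds. The most counted contig of a member, over all libraries, had a median length of 2494 bp, with a range of 541 to 8506 bp. No contig dominated in most members: the contig with the most bud counts held a median of 21.4% of the bud counts of its component, and over 50% in 13 members. In 54 members the leading pair of contigs had counts within 10% of each other in every library, so a read may have been counted on both, and the sum over a component is then no measure of its number of reads. In comp15286 the counts lay mostly on a single contig, comp15286_c0_seq2, of 2505 bp. It held 94.1% of the bud counts of the component, at 932 CPM per kb in buds and 189 CPM per kb on day 2.

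Contigs with a sizeable part of a member's bud counts mostly fell. Of the 557 contigs that held at least 5% of the bud counts of their member, 531 were at least 2-fold lower on day 2 and 5 were not lower. Much of this follows from the rule, which chose members by the fall of their summed counts. The 5% limit on bud counts adds to it, since contigs that carried mainly day 2 counts were left out. No share over other components is given, and nothing is read from these counts. Reads counted on several contigs would also make those contigs alike. In 88 members every such contig was at least 2-fold lower or there was no such contig, as in 4 members. Not all of the 88 fell throughout. For example, comp19426 is among them, although a part of it, comp19426_c11, went from 601 to 781 CPM. Among the 93 members with at least 2 such contigs, the log2 changes of the contigs lay within 0.5 of each other in 72, and 16 spanned 1 or more. The 3 long contigs of comp12908, of 1433, 1310 and 1554 bp, illustrate the former, with log2 changes of −3.79, −3.82 and −3.88.

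The most abundant member combined contigs of unlike behaviour. In comp18327, the contigs comp18327_c0_seq2, comp18327_c0_seq3 and comp18327_c0_seq4 changed by −1.12, −1.18 and −1.12 on the log2 scale. The other 4 (comp18327_c0_seq1, comp18327_c0_seq5, comp18327_c0_seq6 and comp18327_c0_seq7) changed by −3.18, −3.16, −3.18 and −3.21. Counts of comp18327_c0_seq4 were 72493, 93885 and 113016 in buds and 29979, 36382 and 36586 on day 2. Those of comp18327_c0_seq5 were 75408, 82368 and 99625 in buds and 9758, 8430 and 5162 on day 2. The contigs thus had similar counts in each bud library and unlike counts in each day 2 library, and the 3.74-fold decrease of the component is that of neither kind.

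The widest range of contig changes was found in comp19644, which held 602, 656 and 575 CPM in buds and 166, 152 and 154 CPM on day 2. Its contig comp19644_c1_seq3 went from 86.5 to 0.110 CPM, while comp19644_c1_seq2 went from 42.1 to 59.8 CPM. The bud libraries held 42.6, 40.3 and 43.5 CPM of comp19644_c1_seq2 and the day 2 libraries 61.8, 55.8 and 61.8 CPM, so this contig was higher in every day 2 library. Next was comp19440, with 354, 382 and 282 CPM in buds and 144, 129.5 and 118 CPM on day 2. Its subcomponents, the parts into which Trinity divides a component, moved apart. Subcomponent comp19440_c2 held 177, 219 and 131 CPM in buds and 0.428, 0.907 and 0.755 CPM on day 2. Subcomponent comp19440_c4 held 94.4, 97.7 and 82.0 CPM in buds and 107, 98.3 and 89.6 CPM on day 2, so that its stages overlapped. The remaining day 2 level of comp19440 was thus mostly that of a part that did not fall.

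**Figure D5:**
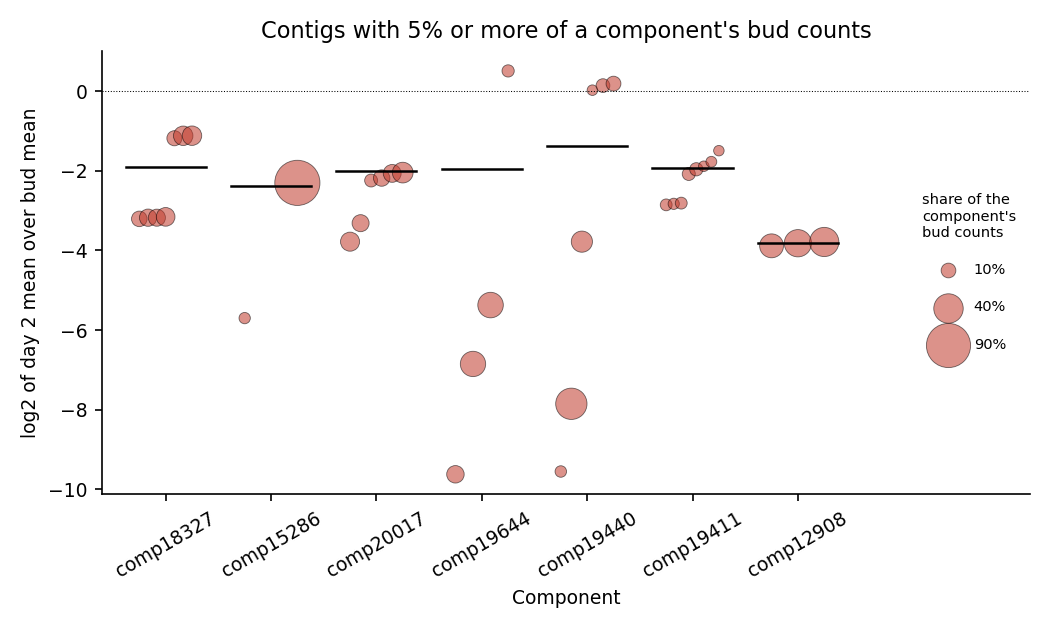
The log2 ratio of the day 2 mean to the bud mean (y axis) of every contig with at least 5% of the bud counts of its component, for 7 members (x axis); point area follows the share of bud counts and the bars mark the whole component. The contigs of comp18327 fall into a group near −1.12 and a group near −3.18, those of comp12908 lie between −3.79 and −3.88, and comp19644 and comp19440 include contigs above 0.

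Sizeable subcomponents also fell unequally in other members. In 10 members at least 2 subcomponents each held 5% or more of the bud counts, and in none of these 10 were all such subcomponents at least 2-fold lower. In 5 of them a subcomponent was not lower on day 2. In comp18259, named after its values were seen, comp18259_c1 fell 13.6-fold, from 1025, 1157 and 978 CPM in buds to 81.7, 76.5 and 73.4 CPM on day 2. Its other subcomponent, comp18259_c0, held 94.5, 106 and 110.5 CPM in buds and 97.7, 106 and 107 CPM on day 2, so that the stages overlapped. The 6.40-fold decrease of the whole component thus understates that of its main part. In comp19426, subcomponent comp19426_c6 fell 5.20-fold, from 2549 to 489.9 CPM, while comp19426_c11 went from 601 to 781 CPM. In comp20017, comp20017_c3 held 373, 564 and 361 CPM in buds and 70.0, 130 and 59.0 CPM on day 2. Its smaller subcomponent, comp20017_c2, held 31.9, 32.0 and 33.2 CPM in buds, so the difference between bud replicates of comp20017 lay in comp20017_c3.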

How the data were processed

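RNA-Seq counts of 3 bud and 3 day 2 libraries were used, matched to samples by their names. The authors trimmed 100-bp paired-end reads, assembled them with Trinity, mapped them to the assembly with TopHat and obtained counts with HTSeq. The deposited table holds raw, not normalized counts for each contig, and its length. The paper's methods name the FASTX toolkit for trimming and the submitters' processing notes name Trimmomatic 0.22. The sources used here do not state how read pairs were counted.

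Counts were summed over contigs sharing the component number, divided by median-of-ratios size factors (from 29550 components with no zero; 1.03 to 1.27 in buds, 0.842 to 1.00 on day 2) and by the mean library total, and multiplied by 1000000. Stages were compared with edgeR 4.0.16 in R 4.3.3 (filterByExpr with a minimum count of 10 and minimum total count of 15, TMM, glmQLFit and glmQLFTest, stage as the only term, Benjamini-Hochberg adjustment over 24677 components); standard errors are the log2 fold change over the square root of F. Alternatives used DESeq2 1.42.0 and limma 3.58.1. Scripts were tested on simulated data. The members and lists were chosen with earlier results of these data known. Components named were the 5 highest in buds, the 3 largest and 3 smallest falls, the 3 highest bud coefficients of variation, the 2 nearest above 300 CPM, the nearest outside each limit and the 2 with the widest contig range; others are said to be named after their values were seen. Counting errors cover independent counts only. No gene lists were tested, because components carry no gene names.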

Additional observations from a re-analysis of the deposited data

How the results depend on the processing

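All 102 members were called lower on day 2 under each of the 15 alternative fits. Over all components tested, the share called lower in these fits ran from 10.7% without the filter on low counts to 45.2% with total-count scaling. Since the rule used this contrast, nothing is read from the calls of members. The 18 members named by rule kept their direction and call in all of the fits, though for 5 of these members the size moved by over 1.5 times. Total-count scaling, which moved the median log2 fold change of all components tested from −0.05 to −0.49, gave 178 components under the rule and a median log2 change of −2.21 for the 102 members, against −1.76; it called 11156 components lower, 71.5% of its calls, against 7447 (51.0%) with TMM. With a bud minimum of 500 CPM the rule chose 50 components, and with a lower limit of 3 times it chose 59. With only the most counted contig of each subcomponent, the members took 8.03% of the counts in buds and 1.64% on day 2, their median log2 change was −1.82, and of 111 components chosen 60 were members. In that setting the log2 fold change was −5.23 for comp19644 (−1.97 with the sum), −2.58 for comp18926 (−3.76), −2.22 for comp19915 (−1.48), −2.33 for comp19440 (−1.39) and −1.15 for comp18327 (−1.92). Leaving out each library in turn gave 99 to 104 components, a median log2 change of −1.79 to −1.73, shares of 9.02% to 9.13% in buds and 1.97% to 2.04% on day 2, and a median bud coefficient of variation of 5.42% to 7.85%. The lowest of these last values was that without bud replicate 2. In the libraries not used to choose the components, the median was −1.74 to −1.84 (−1.81 for replicate 2 and −1.84 for replicate 3). With the replicate number as a block, 7146 components were called lower; same-numbered libraries deviated together only weakly (correlations of 0.08, 0.15 and 0.07), so the numbers were not taken to pair the samples. DESeq2 left 31270 adjusted p-values as NA. The cause of the differences between libraries was not tested.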
